A study of Mus musculus with 18 samples.

Results

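The Nat8 family is a group of acetyltransferase genes, and its members here were all genes of the kidney expression table whose symbol begins with Nat8. The rule found 9 of 19518 genes: Nat8, the numbered relatives Nat8f1 to Nat8f7, and Nat8l. The family was singled out with earlier results of these data in view, and the sources do not say which measured values it was chosen by, so the levels and every comparison here may have had a part in the choice. Levels and differences of the members are therefore given as a description, and no test was made over the family. Kidney RNA was sequenced from ICR mice, an outbred stock, at 10 weeks of age, in 6 groups of 3 libraries. The control and AOS groups carry no mention of a high fat diet, and the AOS group received AOS at 10 mg/kg. The HFD group received a high fat diet, and the HFD+AOS group received that diet and AOS at 10 mg/kg. The HFD+AOS-FMT group received the high fat diet and an FMT labelled with AOS at 10 mg/kg, and the HFD+control-FMT group the diet and an FMT labelled control. The labels spell out neither AOS nor FMT and give no sex, donor or duration. Whether replicate libraries stem from different animals is not labelled either, and the p-values then reflect no more than the scatter among these libraries, part of which may be technical.

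Nat8 encodes an enzyme of the endoplasmic reticulum membrane of proximal tubule cells that acetylates cysteine S-conjugates. This is the last step of the mercapturate pathway, in which foreign or reactive compounds are joined to glutathione by glutathione S-transferases, trimmed by gamma-glutamyltransferase and dipeptidases, acetylated and passed into urine. The same protein is also known as a lysine acetyltransferase of the endoplasmic reticulum, supplied with acetyl-CoA by the transporter Slc33a1. The Nat8f genes were formerly called camello-like genes and have no settled substrates. Nat8l is a more distant relative that makes N-acetylaspartate in neurons.

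In GENCODE M21 on GRCm38 (mm10), the build the reads were aligned to, 8 members lie on the minus strand of chromosome 6 within chr6:85706727-85915687, a span of 209.0 kb. In coordinate order these are Nat8f7 (chr6:85706727-85713205), Nat8f3 (chr6:85732513-85765754), Nat8f6 (chr6:85808024-85820954), Nat8f5 (chr6:85817218-85820972), Nat8 (chr6:85830388-85832082), Nat8f2 (chr6:85865422-85869158), Nat8f4 (chr6:85899051-85904884) and Nat8f1 (chr6:85910154-85915687). Nat8f6 and Nat8f5 overlap on the same strand, and Nat8f1 overlaps the first part of Tprkb, which lies on the plus strand. Nat8l lies apart on the plus strand of chromosome 5 (chr5:33995984-34005916). The pseudogene Nat8b-ps, next to the cluster, was not analysed here. RefSeq gives Nat8f3 as another symbol of both Nat8f6 and Nat8f7, and Cml3 as another symbol of all 3.

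Nat8f3, Nat8f6 and Nat8f7 are near-identical copies. Their coding sequences were 99.3% (Nat8f3 and Nat8f6), 99.6% (Nat8f3 and Nat8f7) and 99.1% (Nat8f6 and Nat8f7) identical in pairwise alignments. All other pairs in the cluster were 65.0% to 84.7% identical, the closest being Nat8f2 with Nat8f4, and Nat8l was 42.9% to 44.8% identical to the others. The similarity decides which reads can be told apart. Of all windows of 50 bases in the longest transcript of a member, 94.32% were found in no other gene for Nat8, 90.72% for Nat8f5, 82.13% for Nat8f2, 80.34% for Nat8f4 and 68.21% for Nat8f1. The share was 32.39% for Nat8f6, 17.71% for Nat8f7 and 14.84% for Nat8f3. How the authors' processing divided reads that fit several copies is not given in the sources used here, so the separate values of these 3 copies are uncertain, and their sum is given beside them. Nat8f1 shared 20.88% of its windows with Nat8b-ps and 10.91% with Tprkb.

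**Figure D1:**
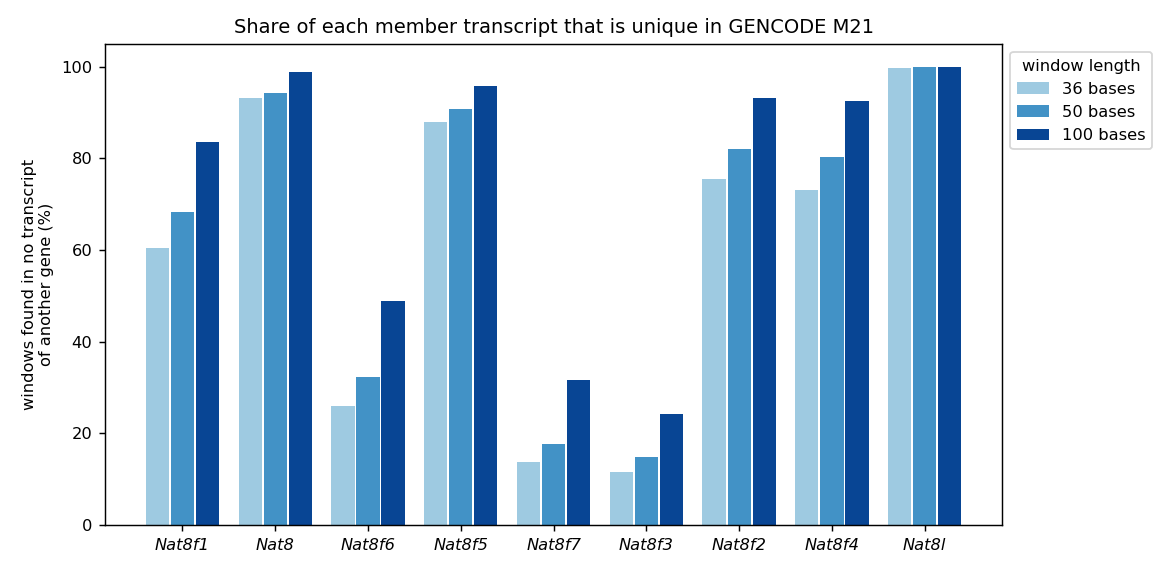
Share of windows of 36, 50 and 100 bases (bars, in percent) in the longest transcript of each of 9 members that occur in no transcript of another gene in GENCODE M21. Nat8f6, Nat8f7 and Nat8f3 stand below the other members at every window length, with 32.39%, 17.71% and 14.84% at 50 bases.

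The similarity of 1 pair extended to the start regions of RefSeq. Over these 300-base regions on GRCm38.p6, Nat8f6 and Nat8f7 were 92.9% identical in 308 aligned columns, with a longest shared run of 96 bases. All other pairs of start regions were 42.5% to 52.4% identical, and that of Nat8f3 was 43.3% identical to that of Nat8f6. The 250 bases before the RefSeq starts of Nat8f6 (chr6:85809878-85810127), Nat8f7 (chr6:85708562-85708811), Nat8f5 (chr6:85820973-85821222) and Nat8f2 (chr6:85869138-85869387) are shown, all from the minus strand. For Nat8f6 and Nat8f7 the annotations differ: the RefSeq starts lie 11077 and 4644 bases inside the GENCODE gene records, so all 250 bases shown lie within those records, while for Nat8f5 0 and for Nat8f2 21 of them do. Which start is used in kidney was not tested. The 4 members were set before shared runs were searched, and the other start regions were not searched for them. The longest exact runs found in all 4 were of 8 bases. Capitals mark 1 of these, CAGCCAAT, which contains the letters CCAAT, and the other is the tggtttat that stands before it.
Nat8f6: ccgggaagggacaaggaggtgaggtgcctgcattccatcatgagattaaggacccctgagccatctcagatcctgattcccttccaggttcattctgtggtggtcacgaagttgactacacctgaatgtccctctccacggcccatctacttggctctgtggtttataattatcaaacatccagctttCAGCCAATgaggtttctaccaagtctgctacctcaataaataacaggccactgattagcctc
Nat8f7: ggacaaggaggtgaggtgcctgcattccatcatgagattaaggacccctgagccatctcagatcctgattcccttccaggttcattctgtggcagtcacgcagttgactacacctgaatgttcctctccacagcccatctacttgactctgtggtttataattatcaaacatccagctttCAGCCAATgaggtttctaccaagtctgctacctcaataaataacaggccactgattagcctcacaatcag
Nat8f5: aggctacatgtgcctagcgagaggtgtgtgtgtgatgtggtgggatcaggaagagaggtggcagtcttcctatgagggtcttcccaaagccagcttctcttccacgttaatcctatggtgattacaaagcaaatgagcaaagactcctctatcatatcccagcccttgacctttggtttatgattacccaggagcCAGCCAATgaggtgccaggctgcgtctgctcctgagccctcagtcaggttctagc
Nat8f2: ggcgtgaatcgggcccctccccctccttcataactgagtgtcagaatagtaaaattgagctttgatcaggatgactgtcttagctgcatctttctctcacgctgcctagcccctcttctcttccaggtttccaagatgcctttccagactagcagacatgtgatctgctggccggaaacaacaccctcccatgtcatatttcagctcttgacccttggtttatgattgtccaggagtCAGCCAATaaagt
The marked run began 62 bases before the start of Nat8f6, 70 before that of Nat8f7, 55 before that of Nat8f5 and 13 before that of Nat8f2. It occurred on either strand in 1256 of 32851 mouse start regions of 300 bases (3.823%), and the other run was not counted in them. These regions are longer than the 250 bases shown, which were searched on the printed strand only. Further short motifs were searched by exact letters on both strands in the 10 start regions of the 8 clustered members. The HNF1 motif GTTAAT was found in 2 of these, at Nat8f5 and at the second start of Nat8, against 7.1% of all start regions. The HNF4 site core CAAAGTCC was found in 1, at the second start of Nat8, against 1.42%. The antioxidant element TGANNNNGC was found in 5, at Nat8f6, Nat8f7, both starts of Nat8f4 and the second start of Nat8, against 41.34%. The nuclear receptor motif AGGTCA was found in 3 (16.26%), the androgen receptor motif AGAACA in 1 (18.97%), and the E-box CACGTG (7.15%) and the D-box TTATGTAA (0.938%) in 0. A match is a run of letters and shows no binding.

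The values are normalized signals whose unit the authors do not state. Low values came in steps that, if the signal is scaled like RPKM values, give about 10360000 to 12050000 reads a library. Kidney markers were present in all libraries, with Slc34a1, the phosphate transporter of the proximal tubule, at 1762 to 3261. Control replicate 3 stood apart. Its Kap, an androgen-regulated proximal tubule transcript, was at 15798 against 113327 to 164490 in the other 17 libraries, its adrenal transcript Star was at 124.64 against at most 1.08, and its mean over 14 proximal tubule markers was 492.9 against 699.4 to 982.9. The 5 libraries of control replicates 1 to 3 and HFD replicates 1 and 2 carried testis germ cell transcripts, with summed markers of 56.43 to 63.37 against at most 27.26 elsewhere. These germ cell transcripts separate the control group from every group other than HFD. In comparisons of those groups with control, the difference of the groups and this property of the libraries cannot be told apart. Where HFD is compared with HFD+AOS, HFD+AOS-FMT or HFD+control-FMT, the separation is partial. There HFD replicates 1 and 2 stand apart in the same way, and only HFD replicate 3, at 22.5, is on the side of the other group. Some results that rest on the controls are also given without control replicate 3, and all others include it.

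Nat8f1 and Nat8 were the most abundant members per length, with means over 18 libraries of 310.84 and 244.06. Their means lay above those of 98.4% and 98.0% of all genes in the table. On the same scale Nat8f6 followed with 122.13, Nat8f5 with 73.86, Nat8f7 with 48.26, Nat8f3 with 32.53, Nat8f2 with 21.67 and Nat8f4 with 2.50. These 8 members had a value of at least 1 in all 18 libraries and entered the fit of 12030 genes. Nat8l was listed at 0.02 to 0.55, behind which stood about 2 to 42 reads, and it did not pass the filter on low values. The brain transcript Snap25 was at 0 to 0.12.

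**Figure D2:**
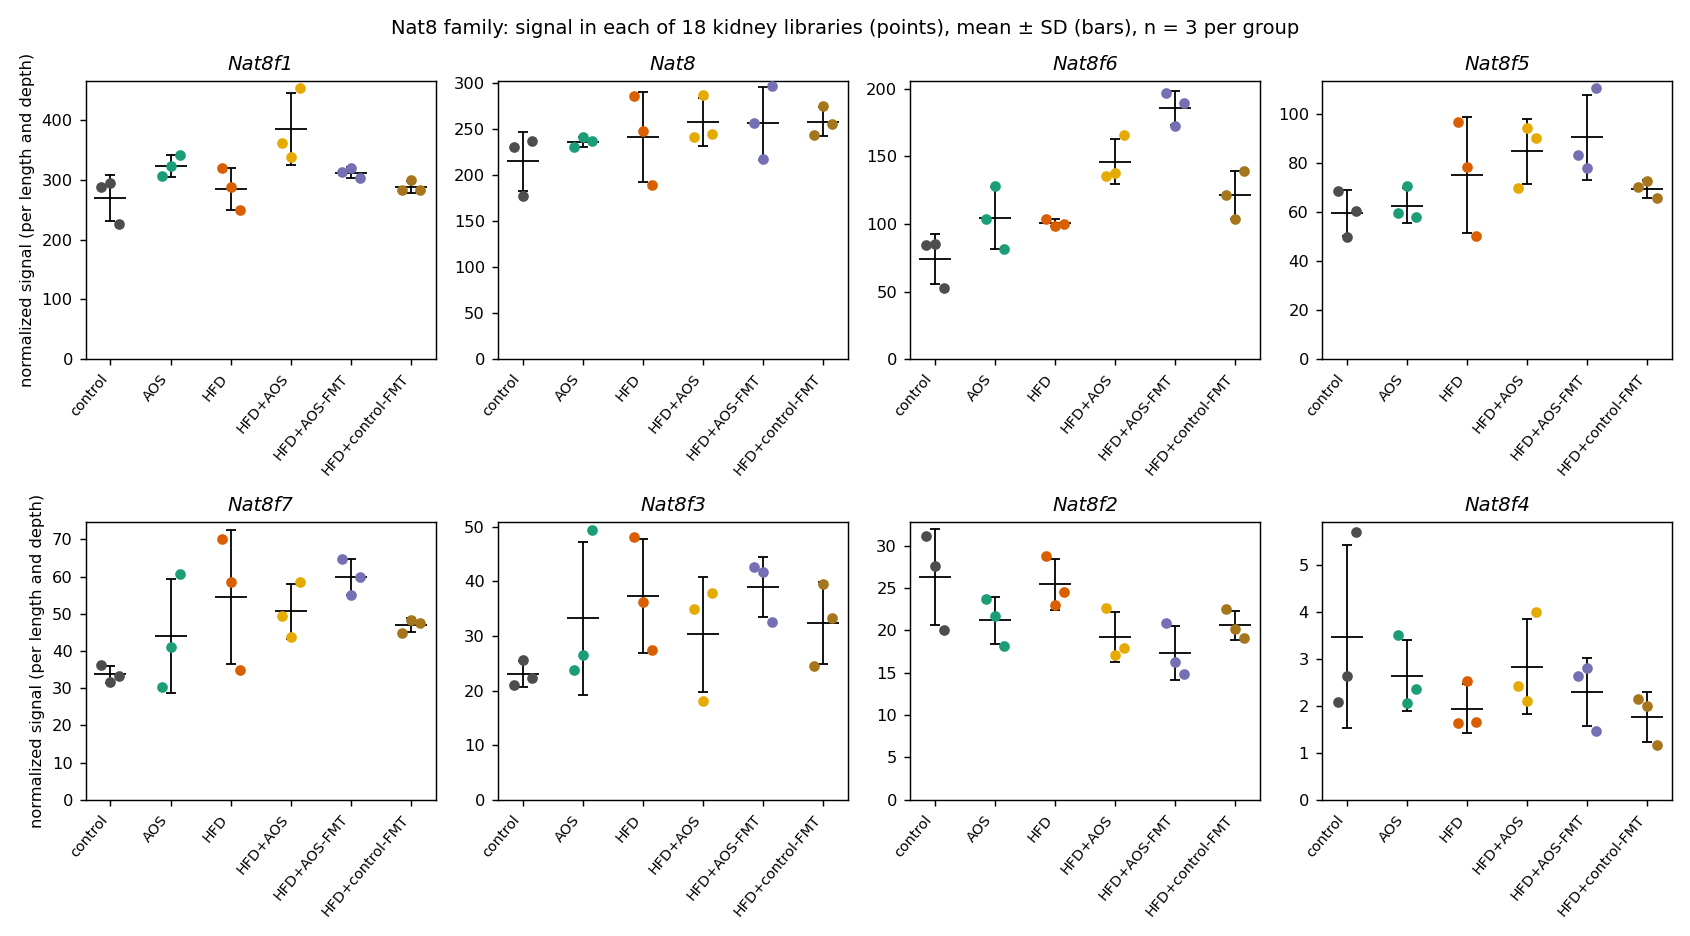
Normalized signal (per length and depth) of 8 members in each of 18 libraries (points), by group, with the mean and SD of 3 libraries (bars); each panel has its own scale, starting at 0. In the Nat8f6 panel the 3 HFD+AOS-FMT libraries, at 172 to 197, lie above all other libraries, and control replicate 3, at 52.6, lies lowest.

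Nat8, the conjugate acetyltransferase itself, had overlapping values in neighbouring groups. Its values were 230.0, 178 and 237 in the controls, 231, 241 and 237 with AOS, and 286, 248 and 189 with HFD. They were 241, 287 and 244 with HFD+AOS, 256, 217 and 296 with HFD+AOS-FMT, and 243, 275 and 256 with HFD+control-FMT. Each neighbouring pair in the order of the group means overlapped, from 257.9 ± 15.99 (SD, n = 3) with HFD+control-FMT down to 214.9 ± 32.42 in the controls. In limma, no comparison of Nat8 reached an unadjusted p of 0.05.

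Nat8f1 was highest with HFD+AOS. Its values were 288, 296 and 226 in the controls, 306, 323 and 342 with AOS, and 319, 288 and 249 with HFD. They were 362, 339 and 454 with HFD+AOS, 314, 320.1 and 303 with HFD+AOS-FMT, and 283, 299 and 282 with HFD+control-FMT. All 3 HFD+AOS libraries lay above all 3 HFD libraries, and the mean of 385.2 ± 60.88 (SD, n = 3) rests in part on the highest library, replicate 3. The HFD+AOS group overlapped with AOS, the next group in the order.

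Nat8f6 had the widest range of the 5 most abundant members, 3.74-fold between the lowest and the highest library. Its values were 84.5, 85.5 and 52.6 in the controls, 103, 128 and 81.6 with AOS, and 104, 98.6 and 100.2 with HFD. They were 135, 137 and 166 with HFD+AOS, 197, 172 and 189 with HFD+AOS-FMT, and 122, 103 and 139 with HFD+control-FMT. The HFD+AOS-FMT libraries lay above every other library, and the control libraries lay below all HFD libraries. Between these ends the HFD+AOS, HFD+control-FMT, AOS and HFD groups overlapped each with the next in order.

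The other close copies were lower and more scattered. Nat8f7 was at 36.2, 31.6 and 33.3 in the controls, 30.3, 41.0 and 60.7 with AOS, 70.2, 58.6 and 34.9 with HFD, 49.5, 43.9 and 58.5 with HFD+AOS, 64.6, 55.0 and 59.8 with HFD+AOS-FMT, and 44.8, 48.3 and 47.6 with HFD+control-FMT. Nat8f3 was at 20.97, 25.6 and 22.3 in the controls and at 32.6 to 42.7 with HFD+AOS-FMT, and its values in the AOS, HFD and HFD+AOS groups spanned 18.2 to 49.4. Every neighbouring pair of groups overlapped for both genes. HFD replicates 1 and 2, which carried germ cell transcripts, lay above replicate 3 for Nat8, Nat8f1, Nat8f3, Nat8f5 and Nat8f7, while all 3 controls with such transcripts were at the low end for Nat8f3 and Nat8f7.

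Nat8f3, Nat8f6 and Nat8f7 were also summed, a choice made after their similarity was seen. The sum depends less on which of the 3 copies a read was given to, but it does not settle whether shared reads were dropped, split or counted more than once, and Nat8f6 also shared 5.72% of its 50-base windows with Nat8f5. The sums were 142, 143 and 108 in the controls, 158, 195 and 192 with AOS, and 222, 193 and 163 with HFD. They were 219.6, 199.6 and 262 with HFD+AOS, 304, 269 and 281 with HFD+AOS-FMT, and 191, 191 and 220.2 with HFD+control-FMT. The HFD+AOS-FMT libraries were again above every other library, and all controls below every other library.

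Nat8f5 was at 59.78 ± 9.441 in the controls and 90.73 ± 17.42 with HFD+AOS-FMT (SD, n = 3 each), and its highest value, 111, was in HFD+AOS-FMT replicate 3. Nat8f2 ran the other way, from 31.2, 27.6 and 20.1 in the controls and 28.8, 23.0 and 24.5 with HFD to 22.6, 17.1 and 17.9 with HFD+AOS and 20.9, 16.3 and 14.9 with HFD+AOS-FMT. Control replicate 3 was the lowest control for Nat8f2 and overlapped with HFD+AOS-FMT, while the HFD libraries did not. Nat8f4 was at 1.16 to 5.70, with its highest value in control replicate 3, and about 41 to 178 reads stood behind each value.

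The members' shares of their summed signal also differed between groups. Nat8f6 made up 10.45% ± 2.214 (SD, n = 3) of the summed signal of the 8 members in the controls and 19.29% ± 0.6647 with HFD+AOS-FMT, with 12.5% to 14.93% in the other group means. Nat8f2 made up 3.702% ± 0.5638 in the controls and 1.804% ± 0.3281 with HFD+AOS-FMT. Nat8f7 made up 4.782% ± 0.257 and 6.205% ± 0.3422 in the same groups. None of these 3 shares overlapped between the 2 groups, while those of Nat8, Nat8f1, Nat8f3, Nat8f4 and Nat8f5 did. No such shares were formed for other genes, so this count has no background beside it. The same 2 groups are also fully split by the germ cell transcripts. A higher share of any member lowers the others, and no test was made of the shares. The lowest Nat8f6 share, 7.99%, was in control replicate 3. The sum itself was 705.4 ± 52.74 in the controls, 822.1 ± 139.3 with HFD, 976.8 ± 83.95 with HFD+AOS and 963.8 ± 54.05 with HFD+AOS-FMT.

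**Figure D3:**
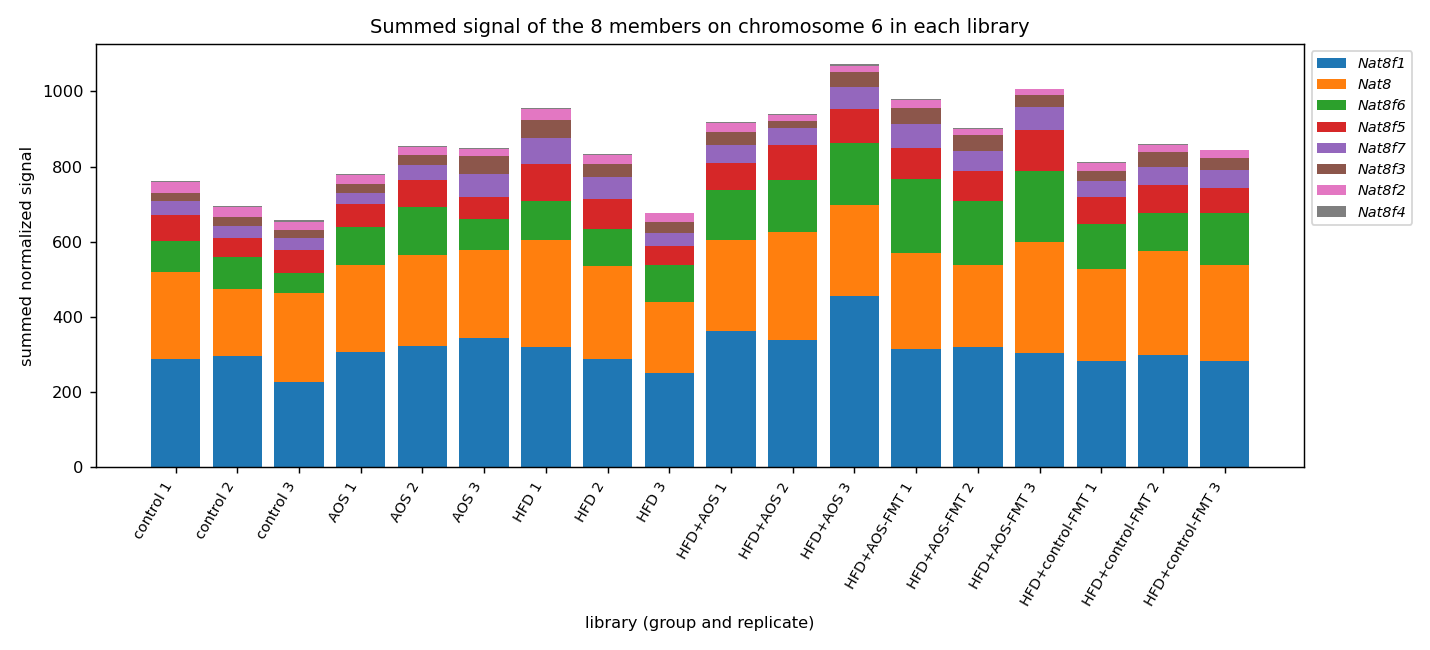
Summed normalized signal of the 8 members on chromosome 6 in each of 18 libraries (stacked bars, starting at 0), named by group and replicate. The Nat8f6 segment makes up 10.45% of the bar on average in the controls and 19.29% with HFD+AOS-FMT.

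The comparison of HFD with control asks what the diet alone did. In limma on log2(value + 1), 0 of 8 members passed an adjusted p of 0.05 (0% of all 12030 genes), and 3 had an unadjusted p under 0.05 (17.4% of all genes). Those were Nat8f7 with a log2 difference of 0.62, Nat8f6 with 0.47 and Nat8f3 with 0.64, at adjusted p of 0.241, 0.244 and 0.284. All 3 are near-identical copies that may share reads, so they are not separate observations. Nat8f6 and Nat8f3 were higher in HFD with no overlap (3.03% of all genes), and no member was lower with no overlap (12.6%). Without control replicate 3, the Nat8f6 difference was 0.24 (adjusted p = 0.815). The median over the members was 0.22, against -0.10 over all genes.

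AOS against control addresses the agent in groups with no mention of a high fat diet. No member passed the adjusted threshold in limma (4 of all genes did, 0.0333%), and 2 had an unadjusted p under 0.05 (12.7% of all genes). Nat8f6 differed by 0.50 (adjusted p = 0.358) and Nat8f1 by 0.27 (adjusted p = 0.382). Nat8f1 was higher with no overlap, as were 3.07% of all genes, and 0 members were lower (10.1%). Without control replicate 3 these differences were 0.27 for Nat8f6 (adjusted p = 0.65) and 0.15 for Nat8f1 (adjusted p = 0.738).

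HFD+AOS against HFD addresses the agent on the high fat diet. Again 0 of 8 members passed in limma (0.823% of all genes did), and 3 had an unadjusted p under 0.05 (15.1%). Nat8f1 was higher by 0.43 (SE 0.12, adjusted p = 0.0978) and Nat8f6 by 0.52 (SE 0.18, adjusted p = 0.17), while Nat8f2 differed by -0.39 (adjusted p = 0.262). For all 3 the groups did not overlap, which held for 16.2% of all genes in the higher direction and 12% in the lower. No control library enters this difference, but all libraries enter the shared estimate of the spread. Without control replicate 3, Nat8f1 (adjusted p = 0.019) and Nat8f6 (adjusted p = 0.0355) passed with the same differences, as did 6.85% of all genes. Over 28 settings the limma adjusted p ran from 0.0181 to 0.326 for Nat8f1 and from 0.0283 to 0.578 for Nat8f6. It stayed above 0.05 under 26 and 25 of them. HFD replicates 1 and 2 carried germ cell transcripts, unlike the HFD+AOS libraries.

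The comparison of HFD+AOS with AOS, which sets the diets apart under the agent, called 0 members and 0% of all genes. Nat8f6 had an unadjusted p under 0.05, as did 11.1% of all genes, with a difference of 0.50 (adjusted p = 0.31), and it was higher with no overlap (12.5%), while 0 members were lower (11.7%). With control replicate 3 left out, 0 members and 1.32% of all genes passed. In the interaction of AOS with diet, 0 members and 0 genes passed in limma, and 0 members had an unadjusted p under 0.05, against 12.4% of all genes.

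HFD+AOS-FMT against HFD asks what the transfer labelled AOS changed on the diet. No member passed in limma (0.175% of all genes did), and 2 had an unadjusted p under 0.05 (13.3%). Nat8f6 was 1.84 times as high by the ratio of means, a log2 difference of 0.87 (SE 0.18, adjusted p = 0.068), and Nat8f2 was 0.683 times as high, a difference of -0.53 (SE 0.16, adjusted p = 0.17). Neither overlapped between the groups, in the higher direction like 17.3% and in the lower like 7.86% of all genes. Without control replicate 3 both passed, with adjusted p of 0.00412 for Nat8f6 and 0.0373 for Nat8f2, as did 4.89% of all genes. Nat8f6 also passed without control replicate 1 (adjusted p = 0.0475). Over 28 settings the limma adjusted p ran from 0.000648 to 0.462 for Nat8f6 and from 0.0283 to 0.807 for Nat8f2. It stayed above 0.05 under 24 and 25 of them. HFD replicates 1 and 2 carried germ cell transcripts, unlike the HFD+AOS-FMT libraries.

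The transfer labelled control is the comparator of this design. In HFD+control-FMT against HFD, 0 of 8 members passed in limma (0% of all genes) and 0 had an unadjusted p under 0.05 (4.5%), and 1 member, Nat8f2, was lower with no overlap (6.38%) and 0 were higher (9.07%). The direct comparison of the transfers, HFD+AOS-FMT against HFD+control-FMT, called 0 members and 0% of genes. In it Nat8f6 was 1.53 times as high, a difference of 0.62 (SE 0.18, adjusted p = 0.516), the only member with an unadjusted p under 0.05 (7.02% of all genes). Nat8f1, Nat8f5, Nat8f6 and Nat8f7 were higher with HFD+AOS-FMT with no overlap, 4 of 8 members, against 12.4% of all genes, and 0 were lower with no overlap (5.67%). Of these, Nat8f6 and Nat8f7 may share reads and are not separate observations. Without control replicate 3 0 members and 0.117% of all genes passed, and the adjusted p of Nat8f6 was 0.0831.

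HFD+AOS-FMT against control combines diet and transfer and gave the only member past the threshold, 1 of 8, against 2.32% of all genes in either direction and 0.989% in the higher direction. Nat8f6 was 2.51 times as high, 185.9 ± 12.48 against 74.17 ± 18.72 (SD, n = 3 each). The limma difference was 1.35 (SE 0.18, adjusted p = 0.0055), and it was 1.12 (adjusted p = 0.00217) without control replicate 3. The summed copies differed by 1.13 (SE 0.14, adjusted p = 0.00548). Of the rest, Nat8f7 (0.81, adjusted p = 0.0783), Nat8f3 (0.73, adjusted p = 0.196), Nat8f5 (0.59, adjusted p = 0.131) and Nat8f2 (-0.56, adjusted p = 0.0792) had an unadjusted p under 0.05, so that 5 of 8 members did, against 19% of all genes. For 5 members, namely Nat8f1, Nat8f3, Nat8f5, Nat8f6 and Nat8f7, every HFD+AOS-FMT library lay above every control (5.84% of all genes), and 0 lay below (10.1%). Nat8f3, Nat8f6 and Nat8f7, which enter both counts of 5, are near-identical copies that may share reads. They are not separate observations, so these counts cannot be set against the shares of all genes as if they were. Nat8f2 passed without control replicate 3 (-0.74, adjusted p = 0.014), where 4.36% of all genes passed.

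Some library properties moved with this difference. None of 14 proximal tubule markers was at 0 in every library. Their summed level was 6901 to 10489 in the controls and 10388 to 13760 with HFD+AOS-FMT, so the ranges overlapped. That sum gives most weight to abundant genes such as Slc34a1 and Miox. Separate lists for parts of the proximal tubule overlapped too. Markers of the early segments (6 genes) summed to 2755 to 3865 in the controls and 3592 to 4133 with HFD+AOS-FMT. Those of the last segment (8 genes) had medians of 146741 and 140668. Division by these separate lists was not tested. In bulk tissue, fewer cells of a type and less RNA per cell cannot be told apart. Divided by the mean of the 14 markers in each library, Nat8f6 was still higher. Its log2 ratio of group means was 0.92 against 1.33 undivided. Without control replicate 3, the lowest library for these markers, the divided ratio was 0.89 against 1.13 undivided. For Nat8 the ratio went from 0.26 to -0.24 on division, but without control replicate 3 from 0.33 to 0.08, so its turn in direction rests on that library. For Nat8f1 it went from 0.21 to -0.21, and without that library from 0.10 to -0.13. The summed level of 7 tubule injury markers was 508 to 2905 in the controls, with the highest value in control replicate 3, and 328 to 447 with HFD+AOS-FMT, with no overlap, and its part in the result was not tested. With the split by germ cell transcripts as a term, the Nat8f6 difference was 1.36, but its adjusted p was 0.312 and 1 gene of 12030 passed. That term is estimated within the HFD group alone, the only one with libraries on both sides. Fitted on the HFD+AOS-FMT and control libraries alone, the difference of 1.35 had an adjusted p of 0.273.

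**Figure D4:**
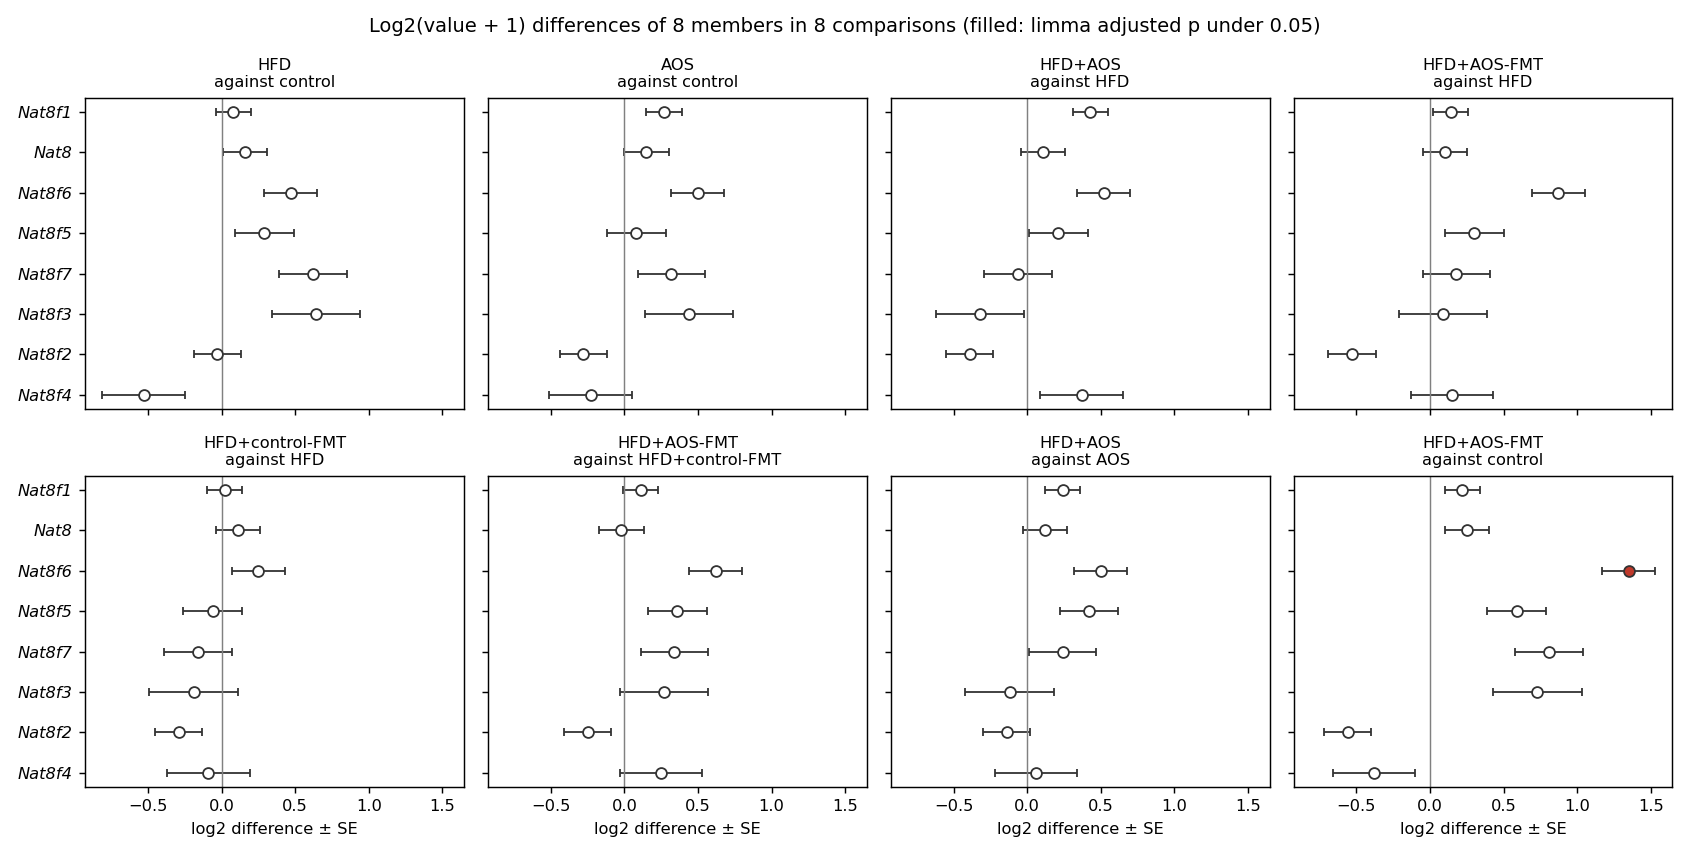
Log2(value + 1) differences of 8 members (points, with SE from limma) in 8 comparisons; a filled point has an adjusted p under 0.05 over all 12030 genes. Nat8f6 in HFD+AOS-FMT against control, at 1.35, is the only filled point, and comparisons that share a group share its libraries.

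Over all 6 groups, the limma F test passed for 1 of 8 members, Nat8f6 (adjusted p = 0.0163), against 1.02% of all genes. Nat8f1 (adjusted p = 0.146), Nat8f2 (0.206) and Nat8f7 (0.278) had an unadjusted p under 0.05, like 17.7% of all genes. The summed copies gave an adjusted p of 0.0132. When control replicate 3 was left out, Nat8f2 and Nat8f6 passed, 2 of 8 members, against 6.36% of all genes. Nat8f6 lost the call without HFD+AOS-FMT replicate 3, where 0 members passed, and the share of all genes in that fit is not listed here.

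The members did not vary as 1 unit across the 18 libraries. Over 28 pairs of the 8 members, Pearson r on log2(value + 1) ran from -0.499 to 0.821 with a median of 0.225, and 16 pairs were positive. The libraries share group, depth and tissue makeup, so these values are a description. Nat8 and Nat8f5, which are 79.4% identical in coding sequence, had the highest r, 0.821, and 0.88 for deviations from the group means. Nat8f3 and Nat8f7 followed with 0.809, and 0.761 within groups. They are near-identical copies, and 79.51% of the 50-base windows of Nat8f3 also occur in Nat8f7. How far reads that fit both copies enter their r was not tested. Nat8f6 went with Nat8f7 at 0.539 over all libraries but at -0.097 within groups. Nat8f2 had negative r with each other member, the lowest with Nat8f6 (-0.499). Within groups the sign turned for Nat8f6 (0.511), Nat8f1 (0.324) and Nat8f3 (0.028).

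**Figure D5:**
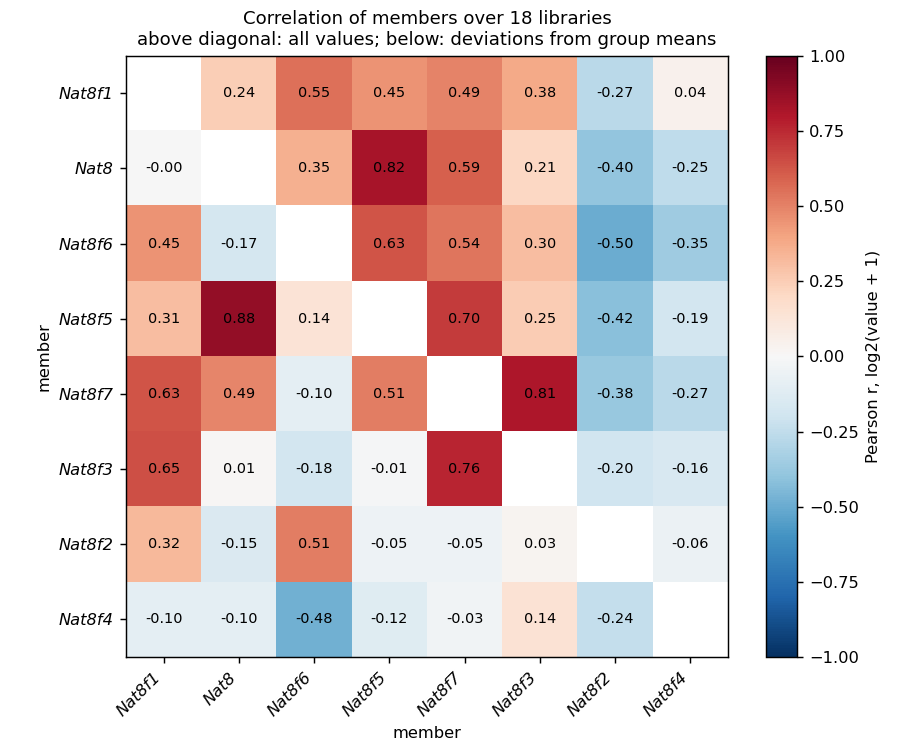
Pearson r between 8 members on log2(value + 1) over 18 libraries, above the diagonal from all values and below it from deviations from the group means (colour and number). Nat8 with Nat8f5 (0.82 and 0.88) and Nat8f3 with Nat8f7 (0.81 and 0.76) are high in both triangles. Nat8f3 and Nat8f7 are near-identical copies, and many of their reads may fit both.

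Among 5801 other genes with a mean of at least 10, the patterns most like Nat8f6 were those of Mgam (r = 0.925), a brush border maltase-glucoamylase, Dnajb6 (0.9), a cochaperone, Med14 (0.884), a Mediator subunit, Enpp3 (0.881), an ectonucleotide pyrophosphatase, and Znrf2 (0.876). Within groups, r was 0.754 for Mgam, 0.879 for Dnajb6 and 0.459 for Enpp3. Mgam was at 11.7, 10.99 and 8.74 in the controls and 14.97, 14.2 and 14.98 with HFD+AOS-FMT. Nat8 and Nat8f5 had the same nearest gene, Mmadhc of cobalamin metabolism (0.802 and 0.866), followed by Zmynd10, Naxe, Rnf181 and Enpp2 for Nat8 and by E130309D02Rik, Abcb8, Pgm2 and Ttc7b for Nat8f5. For Nat8f1 the nearest were Dnajc12 (0.854), Fggy, Ccser2, Igfbp4 and Slc36a1, and for Nat8f2 they were Rhoc (0.878), Dpp7, Slc25a22 and Ppard. Nat8f3 and Nat8f7 had weaker partners, led by Slc25a51 (0.709), before Igip, Larp4b, Trim47 and Fnbp1, and by Fbxo7 (0.743), before Rnf44, Nme7, Sdc2 and Phyhd1. The mean of the members was nearest to Sdc2 (0.813), Snx27, Nme7, Dgat2 and Pgm2.

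The other genes of the mercapturate pathway gave 1 call. Of 41 listed genes in the table, 33 were tested, and over the 8 comparisons in limma 0 were higher and 1, Gsta3, was lower, in HFD+AOS-FMT against control, where 2.32% of all genes passed. Gsta3, a glutathione S-transferase, was at 26.7, 29.1 and 81.4 in the controls and 14.0, 13.6 and 14.5 with HFD+AOS-FMT, so the groups did not overlap. It fell by 1.45 on the log2 scale (adjusted p = 0.0239), and without control replicate 3, the highest control, it fell by 0.94 (adjusted p = 0.00507). The next by p, the transferases Mgst1 (-1.01, adjusted p = 0.0753) and Gstt3 (-0.56, adjusted p = 0.118), were also highest in control replicate 3, at 142 and 68.2. The median over the 33 genes in this comparison was -0.21, against -0.06 over all genes and 0.42 over the Nat8 members.

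Genes that supply glutathione or acetyl-CoA had no calls in any of the 8 comparisons. In these comparisons 0% to 2.32% of all genes passed, so 0 calls in lists as short as those here do not set the lists apart. Of 15 tested genes of glutathione synthesis and turnover 0 passed, and the most abundant, the peroxidases Gpx3 and Gpx1, differed by -0.46 (adjusted p = 0.101) and -0.06 in HFD+AOS-FMT against control. Of 6 genes of acetyl-CoA supply and lysine acetylation in the endoplasmic reticulum 0 passed. There Acss2, an acetyl-CoA synthetase, was at 114.44 in the controls and 143.68 with HFD+AOS-FMT (adjusted p = 0.0593), Slc25a1, the citrate carrier, was at 92.87 and 88.46, and the transporter Slc33a1 at 61.65 and 64.31. Of 9 tested other N-acetyltransferases 0 passed, among them Glyat, the glycine N-acyltransferase, and Sat1, the spermidine acetyltransferase.

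Of the 7 other genes of N-acetylaspartate metabolism in the table, 3 were near 0 like Nat8l and not tested: Rimkla, Rimklb and Naaladl1, with group means of at most 0.49, 0.06 and 0.20. Of the 4 tested genes, 1, Folh1, a glutamate carboxypeptidase, passed in HFD+AOS-FMT against control, where 2.32% of all genes did. Folh1 was at 28.5, 26.1 and 60.1 in the controls and 20.0, 19.2 and 13.4 with HFD+AOS-FMT, and fell by 1.00 on the log2 scale (adjusted p = 0.0456), or by 0.63 (adjusted p = 0.0489) without control replicate 3. Its call was kept under 8 of 28 settings. Aspa, which cleaves N-acetylaspartate, differed by 0.24 (adjusted p = 0.217), as did the dicarboxylate carrier Slc13a3 (adjusted p = 0.212). Naalad2, a peptidase, had group means of 0.66 to 1.21.

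Genes beside the cluster had no calls. Within 500 kb of the cluster lie 18 other genes of the table, of which 11 were tested and 0 passed in any comparison. Over the 8 comparisons 0% to 2.32% of all genes passed, so 0 calls among 11 genes do not set these neighbours apart. Their median difference in HFD+AOS-FMT against control was -0.06, the same as over all genes. The most abundant were Tprkb, a subunit of the KEOPS complex, whose start lies within Nat8f1, at group means of 62.46 to 77.4, and Snrpg, a spliceosome protein, at 51.92 to 75.52. In HFD+AOS-FMT against control, Tprkb differed by 0.12 (adjusted p = 0.468) and Snrpg by -0.27 (adjusted p = 0.442).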

How the data were processed

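Messenger RNA was measured in 18 kidney libraries. The aligner was Bowtie 0.12.2 and the build mm10, per the submitters' processing notes. Not given in the sources used here: read counting, annotation, normalization, strandedness and the treatment of reads that fit several copies. The table the authors deposited holds a normalized signal for each gene symbol in each library and states no unit. From the values, the coefficient of variation of the column sums was 3.5%, or 0.81% once multiplied by transcript length, so the signal was treated as normalized for length and depth. Of 19545 entries, 26 symbols turned into dates and 1 repeated symbol were left out. The members and gene lists were chosen with earlier results of these data known.

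The 12030 genes that reached 1 in 3 libraries were fitted on log2(value + 1), a pseudocount that understates changes of low genes, with limma 3.58.1 in R 4.3.3 (6 groups, 12 residual degrees of freedom, trend and robust estimation, Benjamini-Hochberg adjustment over all genes). "Passed" means an adjusted p under 0.05, and tests are two-sided. Comparisons share groups and so libraries. Named genes were all members, the 5 genes with the highest Pearson r with each member of mean 10 or more and with their mean, and, of each list, up to 3 genes with the smallest p in the comparison with most calls or otherwise the 2 most abundant; 1 gene so named is not reported here. Slc33a1 was named beside these for its role, after its values were seen. Coordinates and transcripts are from GENCODE M21, start regions from RefSeq GRCm38.p6. Alignments used Biopython 1.88. Approximate reads behind a value assume a scale like RPKM. The model was tested on simulated data. Alternatives were other scalings, pseudocounts, filters, spread estimates, array weights, a replicate block, a germ cell term, separate fits, leaving out each library, division by proximal tubule markers and summed copies. Same-numbered libraries of different groups had correlations of -0.159 to 0.26 and were not treated as pairs.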

Additional observations from a re-analysis of the deposited data

How the results depend on the processing

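The log2 difference of Nat8f6 in HFD+AOS-FMT against control was 1.12 to 1.46 over 28 settings, with adjusted p of 0.00186 to 0.312, and it missed the threshold under 2 of them, the germ cell term and the fit of the 2 groups alone. The share of all genes past the threshold moved between settings. Without control replicate 3 it was 4.36% instead of 2.32% for HFD+AOS-FMT against control and 4.89% instead of 0.175% for HFD+AOS-FMT against HFD. It was 6.85% instead of 0.823% for HFD+AOS against HFD and 6.36% instead of 1.02% for the F test. Shares under the other settings are not listed here, so the counts below are not results about the family alone. The number of members past the threshold moved as follows. For HFD+AOS-FMT against control (1 as reported) it was 2 with array weights and 2 with the replicate block (each time Nat8f2 and Nat8f6), 0 with the germ cell term and 0 in the fit of the groups alone, and 1 to 2 when leaving out 1 library (2 without control replicate 3, Nat8f2 and Nat8f6, and 2 without HFD replicate 3, Nat8f6 and Nat8f7). For HFD+AOS-FMT against HFD (0 as reported) it was 2 with array weights, 1 with the replicate block (Nat8f2), 1 in the groups alone (Nat8f6, adjusted p = 0.000648) and 0 to 2 when leaving out 1 library. For HFD+AOS against HFD (0 as reported) it was 2 with array weights (Nat8f1 and Nat8f6), 1 in the groups alone (Nat8f6) and 0 to 2 when leaving out 1 library. For the F test (1 as reported) it was 2 with array weights, 2 with the replicate block, 0 with the germ cell term and 0 to 2 when leaving out 1 library. The replicate block changed no other count; 6 of 18 libraries correlated best with their own number. Divided by proximal tubule markers, the log2 ratios of HFD+AOS-FMT to control turned to -0.24 for Nat8 and -0.21 for Nat8f1; without control replicate 3, chosen after seeing the data, they were 0.08 and -0.13, so the turn of Nat8 rests on that library. The cause of the other shifts was not tested. Other scalings, pseudocounts and filters and summing the 3 close copies moved no member count past 1.5 times. Of 289 member counts under alternatives, 270 stayed the same and 19 moved. Most counts as reported were 0, some where 0% of all genes passed, and a 0 that stayed 0 was taken as the same. The 270 are therefore no measure of how stable the calls are. For Gsta3, 23 of 28 settings kept the call. The unit and the division of reads among near-identical copies limit the values of Nat8f3, Nat8f6 and Nat8f7, and low depth limits Nat8f4 and Nat8l.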
